A study of Mus musculus with 10 samples.

Results

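The genes described here are 10 feedback targets of ERK signalling: the phosphatase genes Dusp4, Dusp5 and Dusp6, the Sprouty genes Spry1, Spry2 and Spry4, the related gene Spred1, the transcription factor genes Etv4 and Etv5, and Phlda1. The rows were picked by gene name, for a list drawn up with earlier results of these data known, and each has 1 row among the 55418 named genes of the 72544 rows in the gene table. All 10 passed the filter on low counts, which left 19936 named genes for testing. Their RNA was measured by sequencing in 10 mouse mammary carcinoma cell lines, with 1 library per line. The 9 derived lines form 3 groups of 3, named here by group and by the number in the title: metastasis 3, 5 and 7 from lung metastases, CTC 1, 3 and 6 from circulating tumour cells, and primary 5, 7 and 8 from fat pad tumours. Their strain label is NOD-SCID-GAMMA, which names the immunodeficient mouse strain that lacks T, B and natural killer cells but keeps neutrophils and macrophages, and by their labels all 9 trace back to CTCs of such mice that had been given 4T1-hHER2 cells in the mammary fat pad. The reference line is parental 4T1-hHER2 itself, with the strain label BALB/cfC3H, which had been infected with a lentivirus for stable expression of human HER2 and luciferase. The derived lines come from these cells, so all 10 lines share this infected origin. The level of human HER2 in each line was not analysed here, so whether it differed between groups was not tested. The labels do not call a line a clone or a pool, and nothing in the labels states that the 3 lines of a group came from separate animals, so each p reflects only how much these lines vary, which may be technical.

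ERK is the last kinase of the RAS-RAF-MEK-ERK cascade, which receptors such as HER2, EGFR and MET switch on. Active ERK raises transcription of a set of genes whose products shut the cascade down again: dual-specificity phosphatases remove phosphate from ERK, and Sprouty and SPRED proteins act between the receptor and RAF. Because their RNA follows pathway output closely, several of these genes serve as readouts of ERK activity in tumours. RNA does not measure ERK phosphorylation, which was not analysed here.

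Each library held between 79869760 and 97722716 estimated counts. Levels are CPM, counts scaled to the same total of tested genes in each library after TMM scaling (a correction for differences in library composition). The epithelial markers Epcam, Cdh1, Krt8 and Krt18 were at 15.7 CPM or more in every library. Of 9 markers of host cells, Sftpc was at 0 in all 10 libraries, Ptprc at most 0.232 CPM and the highest, Dcn, at 12.4 CPM in metastasis 5. The summed level of the 9 markers was 3.68 to 18.2 CPM in metastasis, 2.83 to 8.07 in CTC, 4.14 to 9.48 in primary lines and 2.0 in the parental line, and its part in the results was not tested. In bulk RNA of a culture, fewer cells that express a gene and less of its RNA per cell cannot be told apart.

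Dusp6 encodes the cytoplasmic phosphatase that acts on ERK with high selectivity. It was at 320.7, 345.2 and 72.5 CPM in metastasis 3, 5 and 7, at 428.2, 329.4 and 109.8 CPM in CTC 1, 3 and 6, at 228.3, 89.4 and 116.2 CPM in primary 5, 7 and 8, and at 53.6 CPM in the parental line. The parental line was lowest of all 10, while each derived group held both high and low lines and the 3 groups overlapped. Within the derived lines the highest was 5.91 times the lowest.

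Dusp4 encodes a nuclear phosphatase of the same family, which acts on ERK and on other MAP kinases. It was at 320.0, 276.2 and 117.3 CPM in metastasis 3, 5 and 7, at 195.1, 281.5 and 116.2 CPM in CTC 1, 3 and 6, at 268.5, 129.5 and 93.1 CPM in primary 5, 7 and 8, and at 123.8 CPM in the parental line. The parental line lay within the range of each derived group.

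Dusp5, which encodes a nuclear phosphatase that binds and inactivates ERK, had a different set of high lines. It was at 20.1, 16.5 and 19.2 CPM in metastasis 3, 5 and 7, at 31.2, 26.5 and 29.4 CPM in CTC 1, 3 and 6, at 26.1, 57.0 and 61.3 CPM in primary 5, 7 and 8, and at 24.0 CPM in the parental line. All 3 metastasis lines were below every other library, and primary 7 and 8 were above every other library. Dusp5 was the member with the largest share of its variance between the derived groups, 71.0% on the log2 scale, where the median of all tested genes was 23.0%.

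Upstream sequence of Dusp5, Dusp6 and Spry1 is shown because the results turn on these genes: Dusp6 and Spry1 share their 5 highest libraries, and Dusp5 has a different 5. RefSeq windows of GRCm38.p6 were searched for 6 of the 10 members (Dusp5, Dusp6, Spry1, Spry2, Spred1 and Etv5). No window was searched for Dusp4, Spry4, Etv4 and Phlda1, and the search of members left out the chromosome of Spry4. Each window was searched over the 250 bases before the RefSeq start, on both strands, for CCGGAA (ETS), AGGAAG (PEA3, the motif first described for ETV4), TGANTCA (AP-1), TGACGTCA (CRE) and the CArG box of serum response factor. Capitals mark matches, and the sequences run from 5′ to 3′ on the plus strand, at chr19:53528895-53529108, chr10:99262981-99263230 and chr3:37639697-37639946. For Dusp5 the last 36 bases of the window were left out because GENCODE starts the transcript earlier.
Dusp5: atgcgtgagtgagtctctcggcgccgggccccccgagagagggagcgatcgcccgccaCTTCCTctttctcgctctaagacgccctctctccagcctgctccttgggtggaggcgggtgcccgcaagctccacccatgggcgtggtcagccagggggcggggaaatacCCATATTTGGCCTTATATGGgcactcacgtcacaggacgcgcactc
Dusp6: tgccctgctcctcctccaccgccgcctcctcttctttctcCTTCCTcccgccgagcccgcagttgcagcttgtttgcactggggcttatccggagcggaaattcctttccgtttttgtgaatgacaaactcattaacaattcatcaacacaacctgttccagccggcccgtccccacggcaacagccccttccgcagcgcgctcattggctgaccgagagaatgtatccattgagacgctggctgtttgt
Spry1: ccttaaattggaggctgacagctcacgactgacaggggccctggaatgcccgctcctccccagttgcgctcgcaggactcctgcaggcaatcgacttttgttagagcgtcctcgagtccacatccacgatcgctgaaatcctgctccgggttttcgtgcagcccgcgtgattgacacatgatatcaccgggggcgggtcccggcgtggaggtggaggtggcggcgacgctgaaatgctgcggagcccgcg

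The Dusp5 window holds 2 adjacent CArG boxes, from -82 to -73 and from -72 to -63 counted from the RefSeq start. A CArG box is in 1.47% of all 32851 such windows, and none of the other 5 members searched has one. AGGAAG, on the other strand as CTTCCT, occurs once each in Dusp5 and Dusp6 and in 29.5% of all windows. The ETS, AP-1 and CRE letters were in no window searched for a member, against 12.0%, 6.75% and 1.55% of all windows. No 2 matches overlapped. These matches describe letters in a short window and not binding. Srf, the gene of serum response factor, was itself at 33.4 ± 6.62 CPM in metastasis, 31.7 ± 4.42 CPM in CTC and 54.9 ± 15.6 CPM in primary lines (SD, n = 3 each). In the parental line Srf was at 45.2 CPM, above every metastasis and CTC line, while Dusp5 there was below every CTC line. Any part of serum response factor in the level of Dusp5 was not tested.

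Spry1 encodes a Sprouty protein, an inhibitor of RAS activation by receptor tyrosine kinases, and had the widest range of the 10 genes. It was at 338.2, 547.4 and 99.5 CPM in metastasis 3, 5 and 7, at 204.7, 244.1 and 57.1 CPM in CTC 1, 3 and 6, at 164.8, 57.0 and 29.5 CPM in primary 5, 7 and 8, and at 22.1 CPM in the parental line. The derived lines spanned 18.5-fold, and all were above the parental line. Metastasis 7 and CTC 6 were below primary 5, so the groups overlapped.

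Spry2, a Sprouty gene known as a feedback inhibitor in many epithelia, varied less. It was at 103.4, 99.6 and 37.6 CPM in metastasis 3, 5 and 7, at 95.1, 60.0 and 61.5 CPM in CTC 1, 3 and 6, at 69.5, 38.2 and 71.5 CPM in primary 5, 7 and 8, and at 51.6 CPM in the parental line. Metastasis held both the highest and the lowest library.

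Spry4, which encodes a Sprouty protein that can act on RAF as well, was at 33.0, 29.1 and 17.5 CPM in metastasis 3, 5 and 7, at 46.0, 36.1 and 25.7 CPM in CTC 1, 3 and 6, at 49.8, 23.7 and 31.1 CPM in primary 5, 7 and 8, and at 6.69 CPM in the parental line. Every derived line was above the parental line, the lowest being metastasis 7. Over the derived lines its SD was 0.47 log2 units, the smallest of the 10 genes.

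Spred1 encodes a membrane protein that recruits neurofibromin, which switches RAS off. It was at 200.4, 222.0 and 109.2 CPM in metastasis 3, 5 and 7, at 221.3, 213.7 and 46.4 CPM in CTC 1, 3 and 6, at 199.7, 86.4 and 94.1 CPM in primary 5, 7 and 8, and at 95.2 CPM in the parental line. The 5 highest libraries lay between 199.7 and 222.0 CPM, and the other 5 at 109.2 CPM or below.

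Etv4 and Etv5 encode ETS transcription factors of the PEA3 subfamily that act downstream of ERK. Etv4 was at 48.8, 32.7 and 13.0 CPM in metastasis 3, 5 and 7, at 16.1, 23.8 and 21.9 CPM in CTC 1, 3 and 6, at 46.6, 10.6 and 20.9 CPM in primary 5, 7 and 8, and at 3.9 CPM in the parental line. Etv5 was at 54.5, 106.1 and 41.7 CPM in metastasis 3, 5 and 7, at 64.7, 65.2 and 47.8 CPM in CTC 1, 3 and 6, at 94.1, 60.5 and 39.1 CPM in primary 5, 7 and 8, and at 17.4 CPM in the parental line. For both genes the parental line was lowest and the 3 derived groups overlapped throughout, with 6.7% (Etv4) and 0.6% (Etv5) of the log2 variance of the derived lines between groups.

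Phlda1 encodes a pleckstrin-homology protein whose RNA rises with growth factor signalling. It was at 88.6, 131.1 and 43.3 CPM in metastasis 3, 5 and 7, at 94.8, 73.2 and 70.1 CPM in CTC 1, 3 and 6, at 85.9, 184.8 and 244.6 CPM in primary 5, 7 and 8, and at 70.4 CPM in the parental line. As with Dusp5, primary 7 and 8 were the highest libraries, and primary 5 lay among the metastasis and CTC lines. Per length of all annotated exons of a gene, the mean over the 10 libraries was highest for Dusp4 (70.1 CPM per kilobase), Dusp6 (66.8) and Spry1 (60.7). Then came Phlda1 (49.3), Spry2 (33.0), Spred1 (21.9), Etv5 (14.4), Dusp5 (12.6), Etv4 (7.68) and Spry4 (6.28). This length is 3132 bases for Dusp6 and 2906 for Spry1, whose main transcripts have 2796 and 2481, while for Dusp4 both are 2740. The order of these 3 genes thus depends on the length used. The first place differed by group: Spry1 in metastasis (mean 113.0 CPM per kilobase), Dusp6 in CTC (92.3), Phlda1 in primary (77.9) and Dusp4 in the parental line (45.2).

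**Figure D1:**
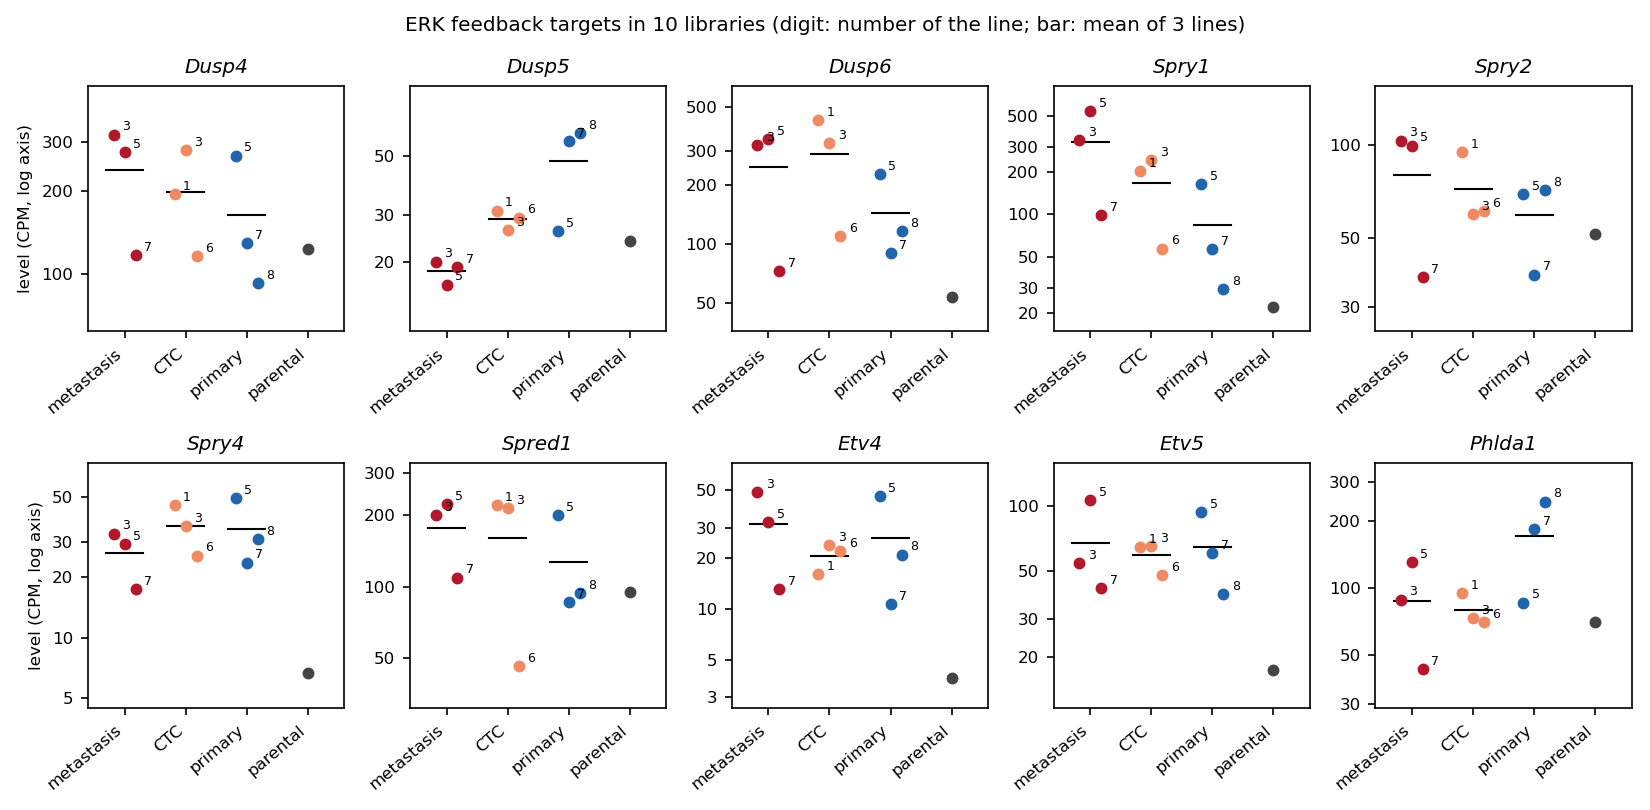
Level of each of the 10 genes in every library, in CPM on a log axis, by group (metastasis, CTC, primary, parental). Each point is 1 library, the digit is the number of the line and the bar is the mean of 3 lines. Dusp5 in the metastasis lines (16.5 to 20.1 CPM) sits below the CTC lines (26.5 to 31.2 CPM), while the Dusp6 groups overlap.

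Antisense or overlapping genes touch the exons of 3 members on the other strand, and no source used here states whether reads were counted by strand, so values of these 3 are uncertain to that extent. AC137853.2 beside Dusp5 had 0 to 21 counts, Gm28592 beside Phlda1 2 to 20 counts and Gm42922 beside Spry1 20 to 123 counts in a library, against at least 1265 counts for Dusp5, 3175 for Phlda1 and 1558 for Spry1. The members lie on chromosomes 8 (Dusp4), 19 (Dusp5), 10 (Dusp6 and Phlda1), 3 (Spry1), 14 (Spry2), 18 (Spry4), 2 (Spred1), 11 (Etv4) and 16 (Etv5) of GRCm38. Assembled transcripts tied to no gene took 19.7% to 22.8% of the counts of a library, so part of a member's reads may stand outside its row.

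Primary 5, CTC 1, CTC 3, metastasis 3 and metastasis 5 were the 5 highest libraries for Dusp6, and the same 5 were the highest for Dusp4, Spry1 and Spred1. These 5 also lie on 1 side of the first principal component of all tested genes, which holds 40.4% of the variance, and 9.41% of the tested genes have all 5 above the other 5 while 7.29% have them below. This split of the libraries is thus not particular to the members. Spry2, Spry4, Etv4, Etv5 and Phlda1 each had 1 or more other libraries among their highest 5, and Dusp5 had only CTC 1 and CTC 3 of these lines there.

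Likeness to Dusp6 was measured as Pearson's r of log2 CPM over the 10 libraries, which share an origin and a scaling, and is given as a description. It was 0.86 for Spry1, 0.83 for Dusp4, 0.80 for Spred1, 0.80 for Spry2, 0.79 for Spry4, 0.75 for Etv5 and 0.72 for Etv4, against 0.10 for Phlda1 and -0.28 for Dusp5. So 7 of the 9 other members reached 0.5, as did 30.4% of the 10249 other genes searched, all averaging 1 or more log2 CPM. The 5 genes outside the members with the pattern most like that of Dusp6 were Ttyh2 (r 0.99), Ascc1 (0.98), Slc16a13 (0.98), Arsa (0.98) and Rasa2 (0.98). Rasa2, which encodes a GTPase-activating protein for RAS, ran from 27.4 to 236.1 CPM.

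**Figure D2:**
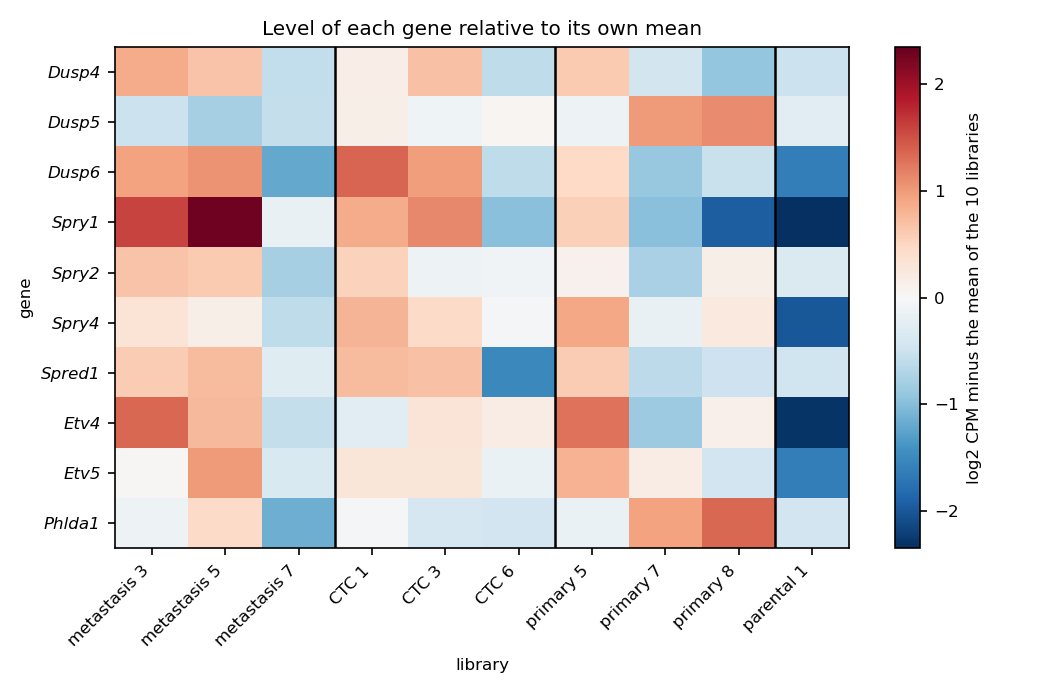
Log2 CPM of each gene (rows) in each library (columns) minus that gene's mean over the 10 libraries, with metastasis, CTC, primary and parental columns set apart by black lines. Red is above and blue below the gene's mean. Metastasis 3 and 5, CTC 1 and 3 and primary 5 are red for Dusp6 and Spry1, and the parental column is blue for every gene.

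Metastasis against primary asks whether lines from lung metastases and from fat pad tumours differ. Spry1 averaged 328.3 ± 224 CPM in metastasis and 83.8 ± 71.5 CPM in primary lines (SD, n = 3 each). Dusp5 averaged 18.6 ± 1.89 CPM in metastasis and 48.2 ± 19.2 CPM in primary lines, and Phlda1 87.7 ± 43.9 CPM in metastasis and 171.8 ± 80.2 CPM in primary lines. Dusp6 averaged 246.1 ± 151 CPM in metastasis and 144.6 ± 73.7 CPM in primary lines. Of the 10 genes, 0 passed edgeR's quasi-likelihood test after Benjamini-Hochberg adjustment, as did 0.0% of the 19936 genes tested. The log2 change was -1.37 (SE 0.34) for Dusp5, 1.97 (SE 0.81) for Spry1 and -0.97 (SE 0.46) for Phlda1, each with an adjusted p of 0.594 by edgeR. The other 7 members had log2 changes between -0.39 (Spry4) and 0.77 (Dusp6), and adjusted p of 0.715 to 0.975 by edgeR.

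By edgeR, 2 of the 10 members had an unadjusted p under 0.05, against 8.29% of all genes. They were Dusp5 (lower, as 4.92% of all genes were) and Spry1 (higher, as 3.37% were). Without primary 7, without primary 8 or without metastasis 3 this count was 1, Dusp5, without metastasis 5 it was 2, Dusp5 and Phlda1, and without primary 5 it was 3, Dusp5, Spry1 and Phlda1. DESeq2 called 1 member, Dusp5 (log2 change -1.37, adjusted p 0.022 by DESeq2), and 0.938% of all genes. By limma-voom the counts were 0 members and 0.0% of all genes. The groups did not overlap for 1 member, Dusp5, which was lower, as were 7.27% of all genes, while 6.38% were higher without overlap. In all, 7 members had a positive change, with a median over the 10 of 0.35 on the log2 scale, where 50.3% of all genes were positive with a median of 0.01.

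CTC against primary asks the same of lines from blood. Phlda1 averaged 79.4 ± 13.4 CPM in CTC and 171.8 ± 80.2 CPM in primary lines (SD, n = 3 each), a log2 change of -1.11 (SE 0.47) with an adjusted p of 0.994 by edgeR. Dusp6 averaged 289.2 ± 163 CPM in CTC and 144.6 ± 73.7 CPM in primary lines, a log2 change of 1.00 (SE 0.66). Spry1 averaged 168.6 ± 98.6 CPM in CTC and 83.8 ± 71.5 CPM in primary lines, a log2 change of 1.01 (SE 0.79). Dusp5 averaged 29.0 ± 2.41 CPM in CTC and 48.2 ± 19.2 CPM in primary lines, a log2 change of -0.73 (SE 0.33). Of the 10 genes 0 passed by edgeR, limma-voom and DESeq2, which called 0.0%, 0.0% and 0.331% of all genes in that order. By edgeR 1 member, Phlda1, had an unadjusted p under 0.05, as did 4.06% of all genes (1.51% higher and 2.54% lower). Without primary 5 this count was 3 (Dusp5, Spry1 and Phlda1), and it was 0 without primary 7, primary 8, CTC 1, CTC 3, CTC 6 or metastasis 3. The other 6 members had log2 changes between -0.34 (Etv4) and 0.34 (Spred1), and 6 of the 10 changes were positive, as were 49.1% over all genes. The groups overlapped for all 10, where 3.13% of all genes were higher and 4.02% lower without overlap.

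Metastasis against CTC compares the sites of dissemination. Dusp5 averaged 18.6 ± 1.89 CPM in metastasis and 29.0 ± 2.41 CPM in CTC lines (SD, n = 3 each), with a log2 change of -0.64 (SE 0.33). The groups did not overlap for this gene alone among the 10, and 3.85% of all genes were likewise lower and 4.43% higher with no overlap. Spry1 had a log2 change of 0.96 (SE 0.79) and Etv4 of 0.61 (SE 0.59), and the other 7 lay between -0.44 (Spry4) and 0.27 (Dusp4). Of the 10 genes 0 passed, with an adjusted p of 1.0 for each by edgeR, 0 had an unadjusted p under 0.05 and limma-voom and DESeq2 called 0. Among all genes limma-voom called 0.00502% and DESeq2 0.14%. By edgeR 0.00502% of all genes passed and 3.29% had an unadjusted p under 0.05 (1.6% higher and 1.69% lower), and 7 members against 49.8% of all genes were positive. Without primary 5, which enters the shared estimate of the spread, 1 member, Dusp5, had an unadjusted p under 0.05. The test of any difference among the 3 derived groups passed 0 of 10 members and 0.0% of all genes. Its smallest p among the members was 0.0081, for Dusp5 (adjusted p 0.9075 by edgeR), and the unadjusted p was under 0.05 for this 1 member and for 5.2% of all genes. That count was 3 without primary 5 and 2 without metastasis 5 or metastasis 7. DESeq2 and limma-voom called 0 members in it, and 0.672% (DESeq2) and 0.0% (limma-voom) of all genes.

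The SD of log2 CPM over the 9 derived lines was 0.47 to 1.37 for the 10 genes, with a median of 0.72, against a median of 0.66 for all 19936 tested genes and 0.48 for the 11311 tested genes averaging 1 or more log2 CPM. A median of 14.6% of this variance lay between the 3 groups, against 23.0% over all genes. Between groups lay over 50% for 1 member, Dusp5, and for 14.1% of all genes, so a larger share within groups than between them is not particular to the members.

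**Figure D3:**
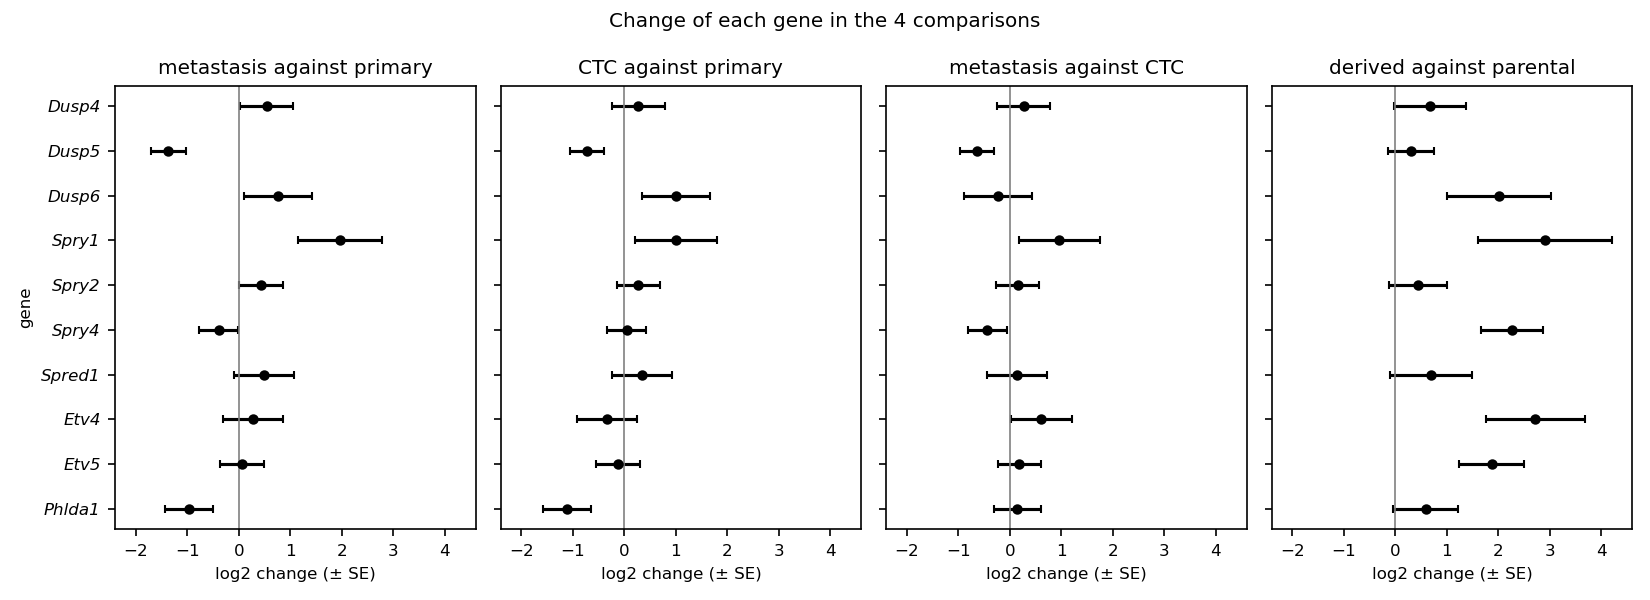
Log2 change of each of the 10 genes in 4 comparisons, with bars for 1 SE from edgeR's fit. In the comparison of derived with parental lines all 10 points lie above 0, from 0.30 (Dusp5) to 2.92 (Spry1), and 0 of the 40 changes passed adjustment.

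Derived against parental asks what differs after passage through mice. Spry4 averaged 26.6 ± 8.1 CPM in metastasis, 35.9 ± 10.2 CPM in CTC and 34.9 ± 13.5 CPM in primary lines (SD, n = 3 each), and was at 6.69 CPM in the parental line. Etv4 averaged 31.5 ± 17.9, 20.6 ± 4.02 and 26.0 ± 18.5 CPM in metastasis, CTC and primary lines, and was at 3.9 CPM in the parental line. Etv5 averaged 67.5 ± 34.1, 59.2 ± 9.91 and 64.6 ± 27.7 CPM in these groups, and was at 17.4 CPM in the parental line. The log2 changes were 2.27 (SE 0.60) for Spry4, 2.72 (SE 0.96) for Etv4, 1.87 (SE 0.64) for Etv5, 2.02 (SE 1.01) for Dusp6 and 2.92 (SE 1.30) for Spry1. By edgeR 0 of 10 members passed, and 0.0201% of all genes did. The smallest adjusted p was 0.451 by edgeR, for Spry4.

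Unadjusted p were 0.0043 for Spry4, 0.0196 for Etv4 and 0.0168 for Etv5 by edgeR, so that 3 of 10 members were under 0.05, all higher, against 10.3% of all genes in either direction with 5.87% higher and 4.46% lower. The count was 5, with Dusp6 and Spry1 added, without CTC 6 or without metastasis 7. DESeq2 called 3 members, Spry4 (adjusted p 0.00245 by DESeq2), Etv4 (0.0258) and Etv5 (0.048), and 3.38% of all genes. Of the members limma-voom called 0, and of all genes 0.12%. In 5 genes, Dusp6, Spry1, Spry4, Etv4 and Etv5, all 9 derived lines were above the parental line, as in 14.1% of all genes, while in 15.4% all 9 were below it. All 10 members had a positive change, with a median of 1.28, where 53.9% of all genes were positive with a median of 0.10. Every value here rests on 1 parental library with no replicate, whose spread the fit takes from the derived lines, so a trait of that library and a difference of the line cannot be told apart.

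Lines with the same number in their titles can be set side by side, although nothing in the labels explains the numbering. Dusp5 was at 16.5 CPM in metastasis 5 and 26.1 CPM in primary 5, at 19.2 CPM in metastasis 7 and 57.0 CPM in primary 7, and at 20.1 CPM in metastasis 3 and 26.5 CPM in CTC 3. It was lower in metastasis in all 3 pairs, which any pairing would give, since every metastasis line was below every other library. Spry1 was higher in metastasis in all 3, with log2 differences of 1.73 (number 5), 0.80 (number 7) and 0.47 (number 3), and Spry4 was lower in all 3, by -0.77, -0.44 and -0.13. Dusp6 gave 0.60, -0.30 and -0.04, and Phlda1 0.61, -2.09 and 0.28 in the same order, so these changed sign between pairs. So did Dusp4, Spry2, Spred1, Etv4 and Etv5. No test was made on single pairs, and the share of all genes with the same sign in all 3 was not computed.

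Other genes of the cascade were taken as whole lists of receptors and ligands, of the core cascade, of other negative regulators and of other ERK outputs. Of 12 receptors and ligands 10 were tested (Ereg and Hgf were not). In metastasis against primary 3 were higher and 7 lower, where 50.3% of all genes were higher. Of the 10 tested, 0 passed, and 3 had an unadjusted p under 0.05 by edgeR, all lower, where 4.92% of all genes were lower at that p. These were Areg, a ligand of EGFR (7.07 ± 4.53 CPM in metastasis and 41.9 ± 38.5 CPM in primary lines), Met, the receptor of HGF (48.8 ± 19.9 CPM in metastasis and 98.5 ± 8.44 CPM in primary lines), and Hbegf, another EGFR ligand (67.9 ± 12.5 CPM in metastasis and 158.2 ± 110 CPM in primary lines; SD, n = 3 each). In CTC against primary 1 of the 10 was higher and 9 were lower, where 49.1% of all genes were higher. In metastasis against CTC 6 were higher and 4 lower (49.8% of all genes higher), and in derived against parental likewise 6 and 4 (53.9%). Fgfr1, a receptor of fibroblast growth factors, was at 43.3 CPM in metastasis 5 and 29.9 CPM in primary 5, at 2.02 CPM in metastasis 7, and at 0.314 CPM or below in the other 7 libraries. Mouse Erbb2 ran from 25.9 to 60.3 CPM over the 10 libraries.

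All 17 genes of the core cascade were tested and 0 passed in any comparison, with median log2 changes of -0.01 in metastasis against primary, -0.03 in CTC against primary, -0.05 in metastasis against CTC and -0.22 in derived against parental. Mapk3, the gene of ERK1, was at 208.9, 229.2 and 103.1 CPM in metastasis 3, 5 and 7, at 199.9, 209.3 and 90.8 CPM in CTC 1, 3 and 6, at 172.8, 70.8 and 46.1 CPM in primary 5, 7 and 8, and at 47.0 CPM in the parental line. Its 5 highest libraries were the same 5 as for Dusp6, and Mapk3 was named for being among the genes with the smallest p of its list. Of the 17 other negative regulators 16 were tested (Spry3 was not) and 0 passed, with median log2 changes of -0.10, 0.01, -0.09 and 0.02 in the same order of comparisons. In derived against parental 8 of these 16 were higher and 8 lower, where 53.9% of all genes were higher. Dusp1, a phosphatase gene of the immediate-early class, averaged 31.6 ± 10.7 CPM over the derived lines (SD, n = 9). It was at 9.59 CPM in the parental line, a log2 change of 1.71 (SE 0.64). Dusp8, another phosphatase gene, was lower, at 28.8 ± 30.5 CPM over the derived lines and 101.4 CPM in the parental line. Its log2 change was -2.08 (SE 0.95).

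All 28 other ERK outputs were tested and 0 passed. In metastasis against primary 9 were higher and 19 lower, where 50.3% of all genes were higher. The median was -0.35, where the feedback targets had a median of 0.35, and the lists were not compared by a test. These medians were -0.10 and 0.16 in CTC against primary, and -0.10 and 0.15 in metastasis against CTC. Of the 28, 5 had an unadjusted p under 0.05 by edgeR in metastasis against primary, all lower, where 4.92% of all genes were lower at that p. Among them were Fosl1, a Fos-family gene (90.2 ± 19.6 CPM in metastasis and 275.8 ± 206 CPM in primary lines), and Epha2, an ephrin receptor gene (270.9 ± 41.2 CPM in metastasis and 665.0 ± 418 CPM in primary lines; SD, n = 3 each). In derived against parental 15 were higher and 13 lower, where 53.9% of all genes were higher. Egr1, an immediate-early transcription factor gene, averaged 68.2 ± 37.1 CPM over the derived lines (SD, n = 9) and was at 5.36 CPM in the parental line. Junb, a Jun-family gene, was lower, at 254.1 ± 137 CPM over the derived lines and 716.3 CPM in the parental line. Egr1 had a log2 change of 3.64 (SE 1.10) and Junb of -1.57 (SE 0.46), each with an adjusted p of 0.451 by edgeR.

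**Figure D4:**
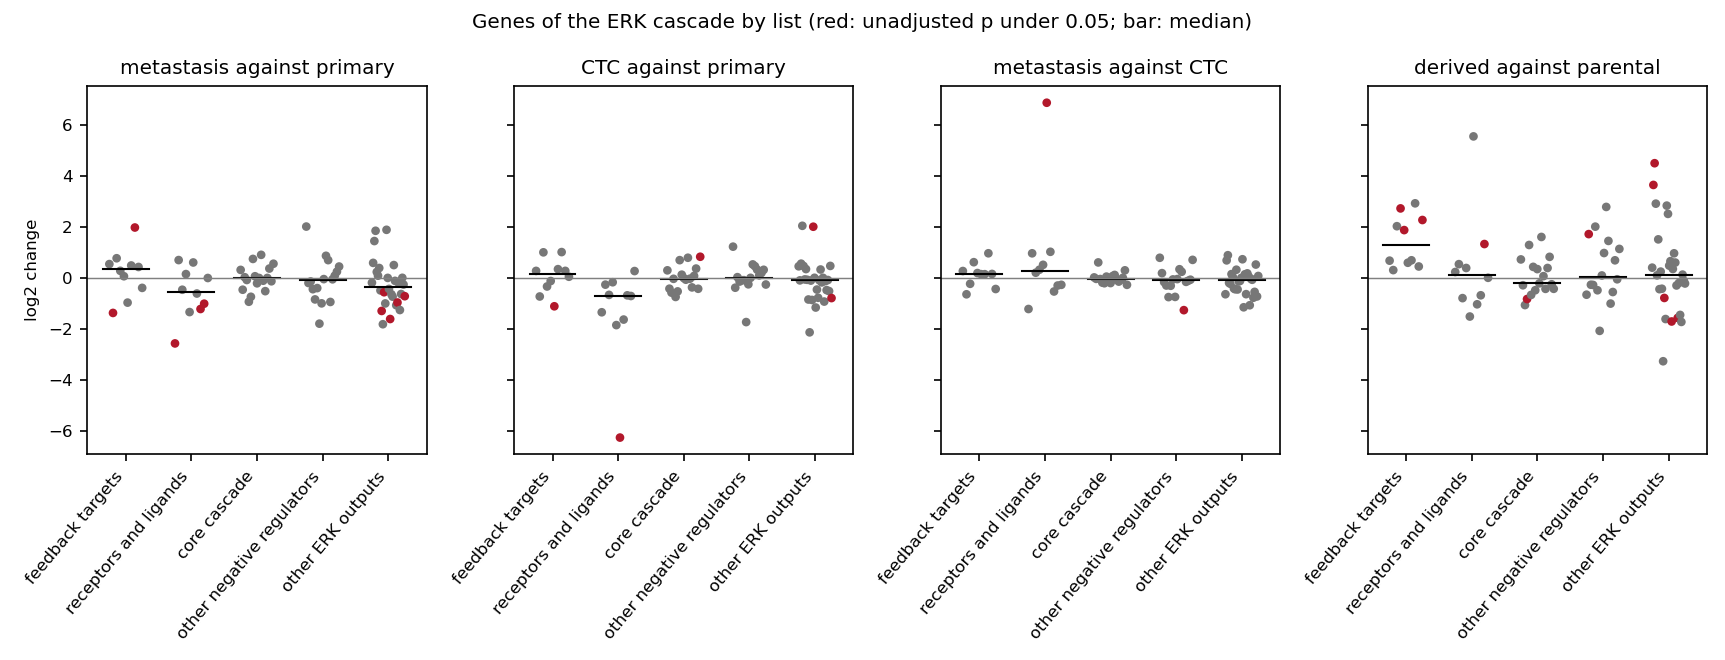
Log2 change of each tested gene of 5 lists (10 feedback targets, 10 receptors and ligands, 17 core genes, 16 other negative regulators and 28 other outputs) in 4 comparisons. Points are genes, red where the unadjusted p is under 0.05, and bars are list medians. In metastasis against primary the bar of the feedback targets is at 0.35 and that of the other outputs at -0.35.

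The transcript table divides the counts of 6 members over more than 1 annotated transcript, and the sums equal the gene table for all 10. Such divisions are estimates where transcripts share most of their exons. Spry1 has 3 protein-coding transcripts, of which ENSMUST00000038569.7 and ENSMUST00000108109.7 start at 37639958 and 37639947 on chromosome 3, just after the sequence printed above. ENSMUST00000108109.7 took 33.4%, 41.2% and 23.3% of the Spry1 counts in metastasis 3, 5 and 7, 31.6%, 37.3% and 15.3% in CTC 1, 3 and 6, 45.7%, 16.6% and 13.0% in primary 5, 7 and 8, and 6.42% in the parental line. Its share was thus highest in the same 5 lines in which Spry1 was highest, with 95% Wilson intervals, which cover counting error only, at most 2.84 points wide.

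Etv4 has 12 annotated transcripts, 3 of them protein-coding. The protein-coding ones took 58.3%, 55.0% and 66.1% of the Etv4 counts in metastasis 3, 5 and 7, 21.4%, 26.8% and 79.3% in CTC 1, 3 and 6, 71.0%, 11.4% and 69.5% in primary 5, 7 and 8, and 41.5% in the parental line. The 95% Wilson intervals were at most 11.6 points wide, in the parental line, where Etv4 had 275 counts. In CPM, the protein-coding transcripts were at 1.21 in primary 7 and 1.61 in the parental line, and between 3.44 (CTC 1) and 33.1 (primary 5) in the other libraries. In primary 7, CTC 1, CTC 3 and the parental line most Etv4 counts were therefore on non-coding transcripts. By the protein-coding transcripts alone primary 7 was below the parental line. That the parental line was lowest thus holds for the gene total of Etv4 and not for its coding transcripts. Whether an assembled transcript with no gene name took reads of the coding ones was not tested. Dusp6 and Phlda1 were almost wholly protein-coding, with at least 97.7% and 95.7% of their counts in every library.

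**Figure D5:**
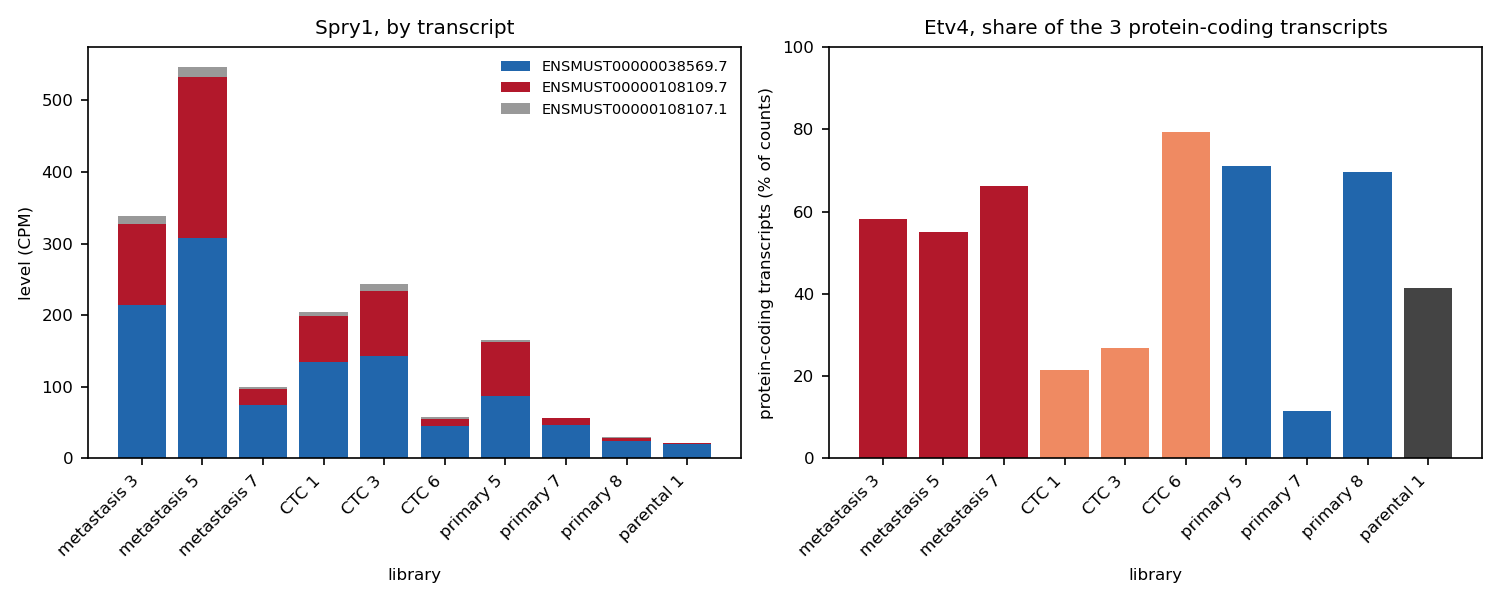
Left, Spry1 in CPM per library, stacked by its 3 transcripts. Right, the percent of Etv4 counts on its 3 protein-coding transcripts per library, coloured by group (metastasis, CTC, primary, parental). ENSMUST00000108109.7 is a large part of Spry1 in metastasis 5 (41.2%) and primary 5 (45.7%), and the coding share of Etv4 is lowest in primary 7 (11.4%).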

How the data were processed

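RNA sequencing libraries of 10 cell lines were compared. The labels call the molecule polyA RNA and name a total RNA kit. The authors deposited estimated counts of genes and of transcripts without scaling them. The submitters' processing notes list the genome GRCm38 and the tools StringTie 2.0.3, HISAT2 2.1.0 and DESeq2 1.26.0, with no role given. StringTie shares reads among overlapping transcripts, and the deposited values are whole numbers. Of the transcript entries, 1 with a missing value was left out.

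The 10 members and the lists were chosen with earlier results of these data known. All members were named, with their CPM in each library. Of each other list up to 4 genes per comparison could be named: those that passed, otherwise those with the smallest p. The range of Erbb2 was added after its values were seen. Positions and lengths come from GENCODE M21, and sequences from RefSeq.

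Rows with a gene name were tested with edgeR 4.0.16 (R 4.3.3): TMM, filterByExpr, 10 libraries in 1 fit of 4 groups, glmQLFit and glmQLFTest, Benjamini-Hochberg adjustment over 19936 genes at 0.05. SE is the absolute log2 change over the square root of F. The steps were tested on simulated data with planted changes and less spread than these data, so that test does not show what could be detected here. Alternatives used DESeq2 1.42.0, limma 3.58.1, other scalings and filters, all rows, fewer samples and blocks.

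Primary and metastasis share numbers 5 and 7, CTC and metastasis number 3. Deviations from group means correlated at 0.12 to 0.406 in these 3 pairs (median of other pairs -0.0493, highest 0.506 for CTC 6 with metastasis 7, above any pair with a shared number). The alternatives with a block treat the numbers as pairs, from the values and not the labels.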

Additional observations from a re-analysis of the deposited data

How the results depend on the processing

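Each of the 40 log2 changes (10 genes, 4 comparisons) was recomputed under the alternatives that could be run for it, 740 values in all: 701 kept direction and side of the threshold, 4 passed where edgeR with TMM factors did not, and 35 changed sign, none of them under another scaling (DESeq2 size factors or upper-quartile factors). The 4 that passed are DESeq2 calls, 1 member in metastasis against primary and 3 in derived against parental, and the cause was not tested. No alternative other than DESeq2 called a member.

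With the number of the line as a fixed replicate block, which leaves 1 residual degree of freedom, the changes of sign were, in metastasis against primary, Dusp4 (-0.046), Etv4 (-0.105) and Etv5 (-0.177), in CTC against primary Dusp4 (-0.214), Spry2 (-0.516), Spry4 (-0.456) and Etv5 (0.098), and in metastasis against CTC Spred1 (-0.109) and Etv5 (-0.275). With it as a random block in limma-voom they were Etv5 (-0.065) in metastasis against primary, Spry4 (-0.051) and Etv5 (0.005) in CTC against primary and Etv5 (-0.069) in metastasis against CTC. Neither block changed the call of a member.

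Leaving out each derived line in turn called 0 members in every comparison. Signs changed within these ranges: in metastasis against primary Etv4 (-0.189 to 1.001) and Etv5 (-0.424 to 0.438), in CTC against primary Dusp4 (-0.072 to 0.829), Spry4 (-0.175 to 0.392), Etv4 (-0.708 to 0.387) and Etv5 (-0.38 to 0.249), and in metastasis against CTC Dusp4 (-0.007 to 0.611), Dusp6 (-0.624 to 0.204), Spry2 (-0.074 to 0.493), Spred1 (-0.294 to 0.446), Etv5 (-0.299 to 0.44) and Phlda1 (-0.265 to 0.47). Dusp5 (-1.67 to -1.151) and Spry1 (1.386 to 2.925) kept their sign in metastasis against primary.

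Over all genes, DESeq2 called 187 in metastasis against primary, 66 in CTC against primary, 28 in metastasis against CTC, 673 in derived against parental and 134 in the test of any difference, where edgeR called 0, 0, 1, 4 and 0. In metastasis against primary the stricter filter (1 CPM in 3 libraries) and the random block called 1, and in the test of any difference the random block called 1. The 1 call of metastasis against CTC became 0 with no filter, with all rows, with only the groups compared and with the fixed block. The 4 of derived against parental became 1 with the stricter filter, 24 with limma-voom, 42 with all rows and 19 with the random block. Without 1 line the counts were 0 to 1 in metastasis against primary, 0 to 1 in metastasis against CTC and 0 to 1 in the test of any difference. The cause was not tested. With 3 lines a group and a biological coefficient of variation of 0.606, a change that did not pass may still be present. Of 40 group levels 7, all parental, moved by more than the spread without TMM factors. For the 1 parental library that spread is counting error, while the derived groups also vary between lines. Derived levels may thus have moved by more than counting error. The transcript sums gave the same counts as the gene table. Derived against parental was not run with the fixed block, and all of its groups already enter the fit, so a fit of only the groups compared adds no value.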
